A study of Mus musculus with 4 samples.

Results

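The cytosolic ribosomal protein genes are those whose products, together with ribosomal RNA, form the large and the small subunit of the ribosome in the cytoplasm. They were taken as every symbol of the deposited count table made of Rpl or Rps and a number. Only the letters a, l, x or y and further digits could follow. Rplp0, Rplp1, Rplp2 and Rpsa were included as well. This gave 85 of the 22609 genes in the table, 52 of the large subunit (Rpl) and 33 of the small subunit (Rps), and all 85 passed the filter on low counts. Genes for a ribosomal protein under another symbol (such as Fau) and pseudogenes with a suffix were outside the rule.

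The libraries were made from polyadenylated RNA of whole mouse testes at postnatal day 3. The 2 wild-type libraries came from animals labelled wild type, and the 2 mutant libraries from animals with a dominant-negative form of thyroid hormone receptor alpha 1 (TRα1). All animals were on a mainly C57BL/6J background and came from matings of AmhCre mice with heterozygous carriers of the TRαAMI allele. The title limits the mutation to Sertoli cells, the somatic cells that enclose the germ cells, whereas the RNA came from all cells of the testis. The labels do not say which alleles the wild-type animals carried, nor whether a library held 1 animal or several, so the p-values reflect the spread among 4 libraries, part of which may be technical. Pairs of values are given with replicate 1 first and replicate 2 second. In such bulk samples, fewer cells of a type and less RNA per cell cannot be told apart.

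Each cytosolic ribosome holds 1 copy of nearly every ribosomal protein, and cells make these proteins in matched amounts. Growing cells devote much of their messenger RNA to them, and the messengers share a start that ties their translation to growth signals. The genome also holds copies of some of these genes. Rpl10l and Rpl39l are autosomal copies of the X-linked genes Rpl10 and Rpl39 and are known from male germ cells, in which the X chromosome is silenced during meiosis, while Rpl3l is a copy of Rpl3 known from skeletal muscle and heart.

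Gene counts ranged from 10230512 to 15636832 per library. Over all 14788 tested genes, 2.52% were called lower, 3.15% higher and 5.67% in either direction in mutant testes by edgeR's quasi-likelihood test at an adjusted p below 0.05, and the median log2 fold change was -0.006. Of 10 Sertoli cell markers, 3 were called lower, and the list summed to 5418 and 5784 CPM in wild-type testes against 4263 and 4289 CPM in mutant ones. This sum rests mostly on a few abundant genes, and the markers did not move together, with negative log2 fold changes in 7 and positive ones in 3. CPM are gene counts scaled to one common library size. Of 10 leukocyte markers 3 were called higher, of 5 adipocyte markers tested 4 lower, and all 6 Leydig cell markers were not called. The part of these cell types in the values below was not tested.

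The coding sequences of Rpl39 (NCBIM37, the assembly also called mm9, chromosome X, 34622515 to 34625397, minus strand) and Rpl39l (chromosome 16, 10170319 to 10175004, plus strand) are shown because Rpl39l had the largest fall among the members. Both are 156 bases long and identical at 85.3% of positions, and capitals mark the 23 positions at which they differ.
Rpl39: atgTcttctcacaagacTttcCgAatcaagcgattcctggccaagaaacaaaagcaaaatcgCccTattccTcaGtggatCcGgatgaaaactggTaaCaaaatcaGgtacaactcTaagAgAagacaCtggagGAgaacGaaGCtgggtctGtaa
Rpl39l: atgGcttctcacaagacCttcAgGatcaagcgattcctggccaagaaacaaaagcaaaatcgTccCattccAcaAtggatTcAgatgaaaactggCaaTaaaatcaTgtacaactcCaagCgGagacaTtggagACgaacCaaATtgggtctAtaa
Rpl10 (chromosome X) and Rpl10l (chromosome 12, 67384368 to 67385388, minus strand) have coding sequences of 645 bases that are identical at 84.8% of positions. None of the 100-base stretches of the Rpl39l and Rpl10l coding sequences occurred unaltered elsewhere in the assembly. With up to 2 mismatches allowed, all those of Rpl39l were still unique, whereas 48.4% of those of Rpl10l were, the others matching 1 further locus.

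Ribosomal protein genes took a lower share of the uniquely placed gene counts in both mutant libraries than in both wild-type libraries. The members summed to 2.62% and 2.89% of gene counts in wild-type testes and to 2.08% and 2.32% in mutant testes. The group means were 2.75% ± 0.187 and 2.20% ± 0.167 (SD, n = 2 each), a ratio of 1.25, with a two-sided exact permutation p of 0.333, the smallest that 2 against 2 libraries can give. The 5 genes with the most counts held 36.4% of the counts of all members.

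**Figure D1:**
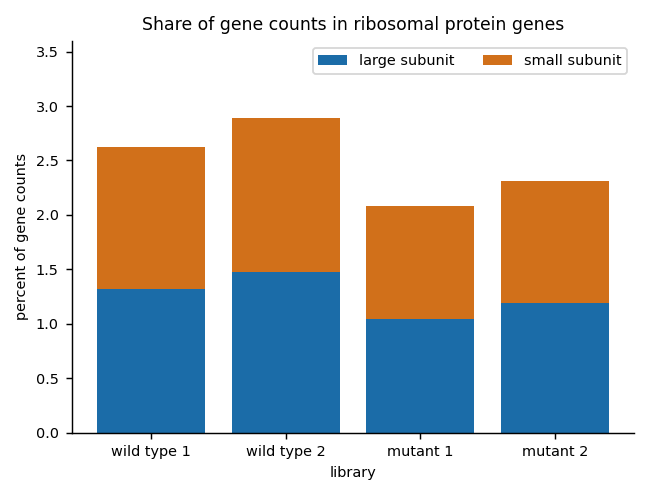
Percent of all gene counts (y axis) that fell in ribosomal protein genes in each of the 4 libraries (x axis), stacked by subunit. The total was 2.62% and 2.89% in the wild-type and 2.08% and 2.32% in the mutant libraries, and the subunits took nearly equal parts in each.

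Most members lay lower in mutant testes by a small amount, and Rpl39l, Rpl10l and Rpl3l had the largest differences. Of the 85, 80 had a negative log2 fold change (mutant over wild type), against 50.8% of all tested genes. The median log2 fold change was -0.30, a 1.23-fold lower level, and the quartiles were -0.40 and -0.21. In 62 members both mutant libraries lay below both wild-type libraries, which held for 29.0% of all tested genes. In 2 members, Rpl10 and Rpl3l, both mutant libraries lay above (28.3% of all genes), and in 21 the groups overlapped. At an unadjusted p below 0.05, 44 members were lower, against 12.6% of all tested genes.

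After adjustment over all genes, 8 members fell (9.41%, against 2.52% of all genes) and 77 were not called. They included the copies Rpl39l, Rpl10l and Rpl36al, the large subunit gene Rpl14 and the small subunit genes Rps21, Rps19 and Rps15. The count depended on single libraries, with 1 member called lower on leaving out wild-type replicate 1, 2 on leaving out wild-type replicate 2, 3 for mutant replicate 1 and 15 for mutant replicate 2. The genes called lower over the whole table then numbered 40, 88, 334 and 477 in the same order, against 373 with all libraries. DESeq2 called 16 members and 412 genes of the whole table lower. The median of the members stayed between -0.39 and -0.23 when each library was left out, and 74 to 79 members then had negative values.

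**Figure D2:**
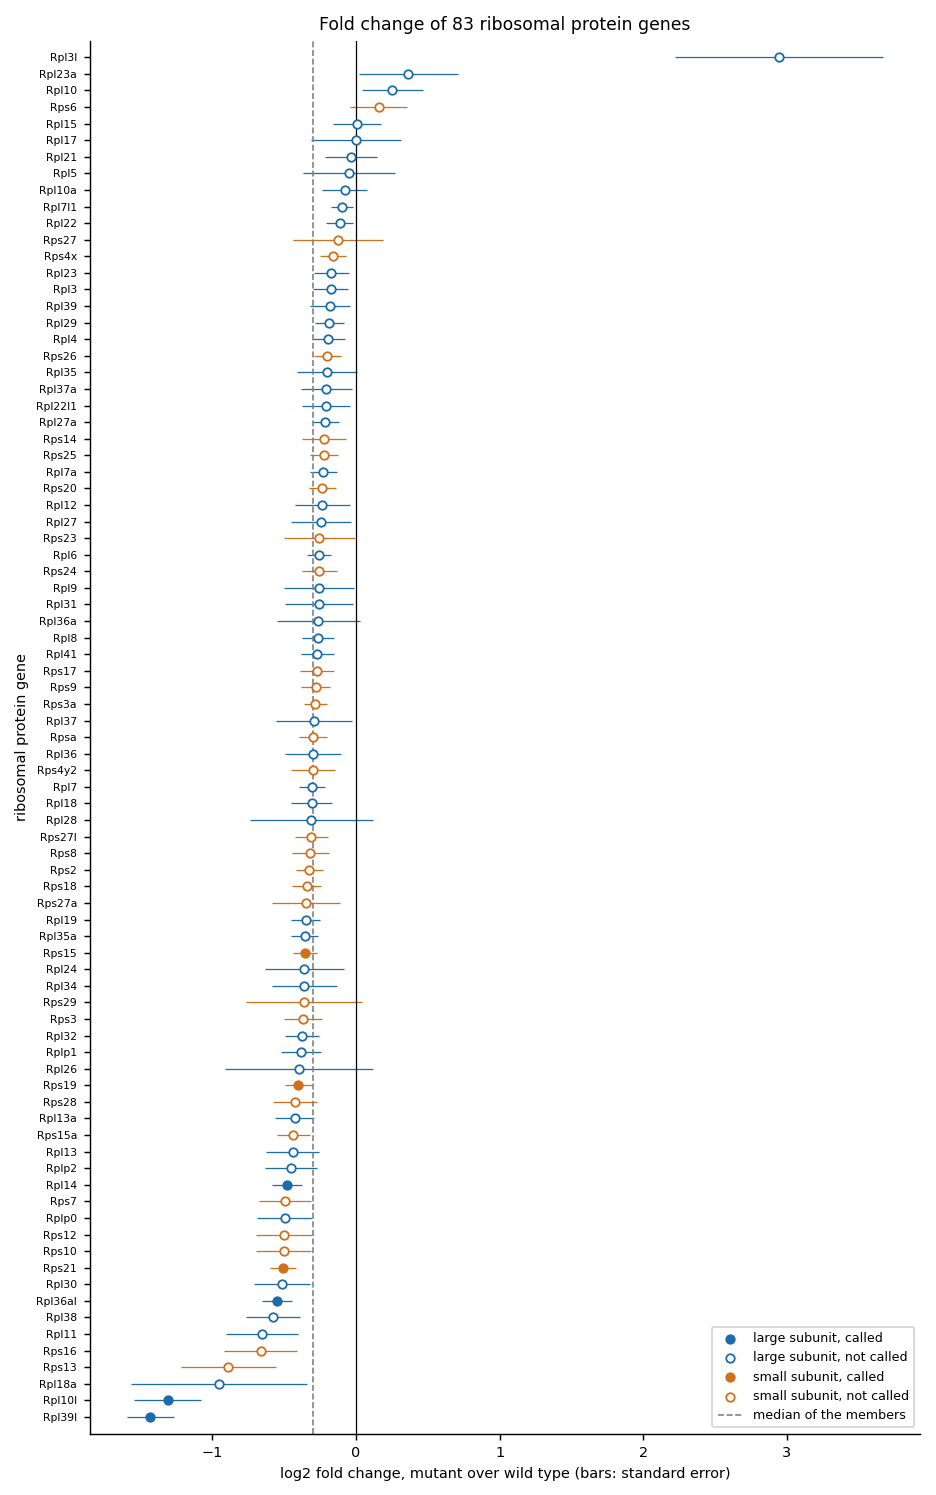
Log2 fold change (x axis, with standard errors) of 83 of the 85 members (y axis, sorted), blue for the large and orange for the small subunit. Filled points are 7 of the 8 members with an adjusted p below 0.05, and the dashed line is the members' median of -0.30.

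Other abundant genes were centred on 0, where the scaling of the libraries largely places them, so their median is no independent reference. Among the 2650 other genes with a mean of at least 100 CPM, the median log2 fold change was 0.00, with 71 called lower and 105 higher. The 38 members above that level had a median of -0.28, and the 47 members below it one of -0.31.

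The libraries of a group also differed from each other. Wild-type replicate 2 exceeded replicate 1 in 62 of the 85 members, with a median log2 ratio of 0.10, and mutant replicate 2 exceeded replicate 1 in 61, with a median of 0.12. Over all tested genes these medians were -0.0024 and -0.0027, values that the scaling of the libraries largely holds near 0. Each library's median deviation from the 4-library mean, on the log2(CPM + 0.5) scale, was 0.10 and 0.20 in wild-type and -0.22 and -0.06 in mutant testes. Mutant replicate 1 thus stood lowest. The 15 skeletal muscle markers summed to 117 and 91.9 CPM in wild-type testes and to 3070 and 852 CPM in mutant testes, so mutant replicate 1 also held the most muscle RNA. The members' median was -0.23 without mutant replicate 1. Their share of gene counts, mutant minus wild type, was -0.558 percentage points over all genes and -0.554 with the muscle markers left out. These markers hold a small part of the counts, so leaving them out could move the share only little. Other transcripts of muscle stayed in the total, and the part of muscle RNA in the members' values was not tested.

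Both subunits had lower medians. The large subunit had a median log2 fold change of -0.26, with negative values in 48 of 52 members and both mutant libraries below both wild-type libraries in 34. The small subunit had a median of -0.32, with negative values in 32 of 33 and groups separated in the same way in 28. Over all tested genes, 50.8% had negative values and 29.0% had both mutant libraries below both wild-type libraries. Large subunit genes held 50.4% and 50.9% of the members' counts in wild-type testes and 50.2% and 51.6% in mutant testes, so that the balance differed more within the mutant group than between the groups. Each subunit had 4 called genes, 7.69% of the large and 12.1% of the small subunit, against 2.52% of all tested genes called lower. Of those in the large subunit, 3 were copies.

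Rps21, a small protein on the solvent side of the small subunit (chromosome 2, 179992082 to 179993150, plus strand), stood at 651 and 700.4 CPM in wild-type testes against 463 and 489 CPM in mutant ones. The groups did not overlap, and the gene fell 1.42-fold (log2 -0.51 ± 0.09 SE, adjusted p = 0.0236). Rps15 (chromosome 10, 79755176 to 79756859, plus strand) had close replicates, with 648 and 655 CPM in wild-type testes against 514 and 504 CPM in mutant ones. Its fall of 1.28-fold stood at the edge of the threshold (adjusted p = 0.04998), and the call was lost under 8 of 15 alternatives.

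Rps19, a small subunit protein needed for ribosome maturation whose loss in people causes Diamond-Blackfan anaemia (chromosome 7, 25669390 to 25674825, plus strand), stood at 267 and 263 CPM in wild-type testes against 185 and 215 CPM in mutant ones. It fell 1.32-fold (adjusted p = 0.0482), a call lost under 9 of 15 alternatives, limma voom (adjusted p = 0.0545) and the fit without a filter on low counts (adjusted p = 0.0715) among them. Rpl14 (chromosome 9, 120480632 to 120483770, plus strand) stood at 337 CPM in both wild-type libraries and at 218 and 265 CPM in mutant testes, and fell 1.4-fold (adjusted p = 0.0394). In these genes the wild-type replicates nearly coincided and mutant replicate 1 was lowest. The calls of Rps21, Rps15, Rps19 and Rpl14 were each lost on leaving out either of the wild-type libraries. They were also lost without mutant replicate 1 (log2 fold changes of -0.47, -0.37, -0.30 and -0.35 for Rps21, Rps15, Rps19 and Rpl14), and that of Rps15 without mutant replicate 2 (-0.34).

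**Figure D3:**
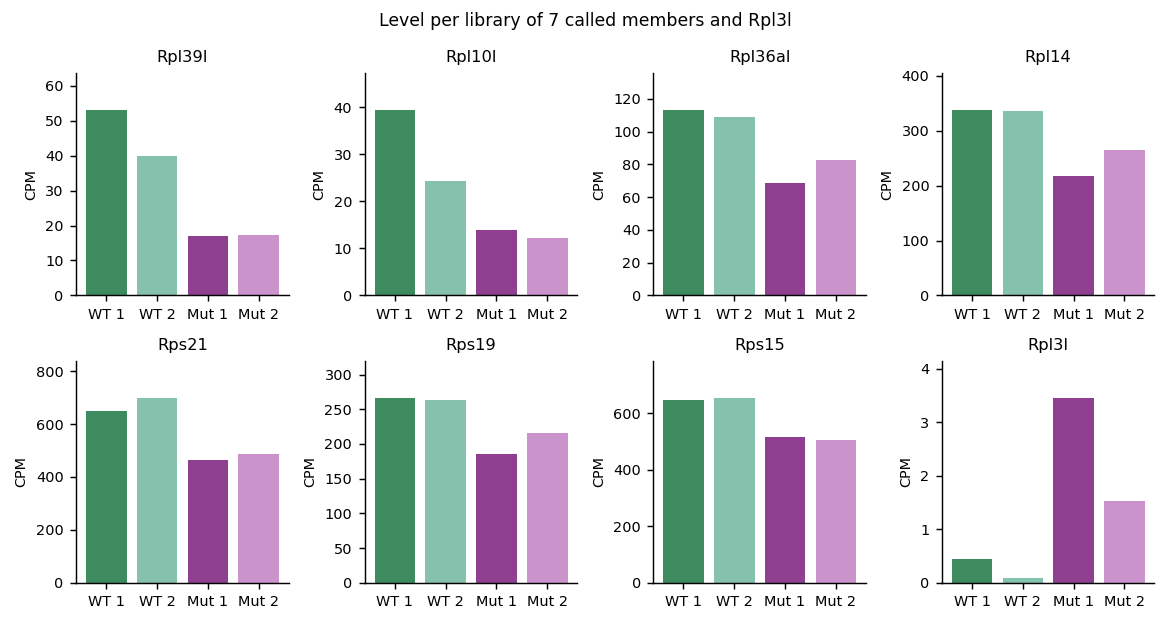
Level in CPM (y axis, starting at 0, scales differ) of 7 called members and Rpl3l in wild-type (WT) and mutant (Mut) replicates 1 and 2. In each panel both mutant bars stand on one side of both wild-type bars: below for the 7 called genes and above for Rpl3l, which was not called.

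The stalk proteins Rplp0, Rplp1 and Rplp2 form the arm of the large subunit that recruits translation factors. Rplp0 stood at 1658 and 2013 CPM in wild-type testes against 1031 and 1569 CPM in mutant ones. Rplp1 stood at 1143 and 1153 against 751 and 1009 CPM, and Rplp2 at 114 and 116 against 64.7 and 102 CPM. All mutant values were below the wild-type values, with mutant replicate 1 far lower than mutant replicate 2, and none of the changes was called by edgeR (log2 -0.50 ± 0.19, -0.38 ± 0.14 and -0.46 ± 0.18, adjusted p = 0.159, 0.139 and 0.166; each had an unadjusted p below 0.05). DESeq2 called Rplp1, and limma voom called none of the 3. Without mutant replicate 2 all 3 passed, at -0.83, -0.61 and -0.83 (adjusted p = 0.00542, 0.0203 and 0.000258), and without mutant replicate 1 they were at -0.23, -0.19 and -0.17.

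The members with the highest levels were not called by edgeR. Rps3, a protein at the messenger entry channel that also acts in DNA repair, stood at 2160 and 2462 CPM in wild-type testes against 1637 and 1943 CPM in mutant ones, without overlap (log2 -0.37 ± 0.13, adjusted p = 0.136). DESeq2 called Rps3 lower (log2 -0.36, adjusted p = 0.0179). Rpl4 was at -0.19 ± 0.11 and Rpl8 at -0.26 ± 0.11, with adjusted p of 0.329 and 0.192, and in each both mutant libraries lay below both wild-type libraries. Rpsa, the laminin receptor precursor of the small subunit, was at -0.30 ± 0.10 (adjusted p = 0.105). Rps14 stood at 844 and 1148 CPM in wild-type testes against 787 and 921 CPM in mutant ones, and its groups overlapped. Rpl5 and Rpl11, which bind Mdm2 when ribosome assembly is disturbed, had log2 fold changes of -0.05 ± 0.32 and -0.66 ± 0.25 at wild-type means of only 6.62 and 6.50 CPM, with adjusted p of 0.942 and 0.152. Among members with a mean log2 CPM of at least 1, the lowest values that were not called belonged to Rps13, Rps16 and Rpl11 (-0.89, -0.66 and -0.66), all below 10 CPM. The 5 highest belonged to Rpl23a, Rpl10, Rps6, Rpl15 and Rpl17 (0.36, 0.25, 0.16, 0.01 and -0.00064), with adjusted p from 0.489 to 0.9995.

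The germline copies fell furthest. Rpl39l stood at 52.9 and 39.9 CPM in wild-type testes against 17.1 and 17.4 CPM in mutant ones. The mutant replicates coincided, far below both wild-type libraries, and the gene fell 2.7-fold (log2 -1.43 ± 0.16, adjusted p = 0.00616). No other member stayed called whichever of the 4 libraries was left out, and its log2 fold change then ran from -1.62 to -1.21. Rpl10l stood at 39.4 and 24.4 CPM in wild-type testes against 13.9 and 12.1 CPM in mutant ones, and fell 2.48-fold (log2 -1.31 ± 0.23, adjusted p = 0.0231). Both transcripts were highest in wild-type replicate 1, and without it Rpl10l was at -0.92 and no longer called (adjusted p = 0.1).

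The parent genes were not called. Rpl39 stood at 62.6 and 74.99 CPM in wild-type testes against 53.1 and 67.4 CPM in mutant ones, with overlapping groups (log2 -0.18 ± 0.14, adjusted p = 0.453). Rpl39l thus went from 45.8% and 34.7% of the counts of the pair in wild-type testes to 24.4% and 20.5% in mutant testes. A share within a library needs no scaling, and each exact (Clopper-Pearson) 95% interval, for counting error alone, lay apart from the others except those of the mutant libraries (43.3 to 48.4, 32.0 to 37.5, 21.4 to 27.5 and 18.4 to 22.8). Rpl10l made up 82.5% and 68.4% of the counts of its pair with Rpl10 in wild-type testes, and 54.6% and 51.2% in mutant testes. Rpl10 itself stood at only 8.34 and 11.3 CPM in wild type and 11.6 and 11.6 CPM in mutant testes, in a sequence with many copies in the genome (below), so these shares compare libraries and not the amounts of the proteins. For each of these shares the exact permutation p was 0.333, the smallest possible.

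Of 16 germ cell markers measured beside them, 13 fell (81.25%, against 2.52% of all tested genes) and 3 were not called. The median log2 fold change of the 16 was -1.29. The list summed to 1040 and 705 CPM in wild-type testes and to 403 and 357 CPM in mutant testes. Wild-type replicate 1 was highest for this sum, as for Rpl39l and Rpl10l, and each marker was read in every library. The part of the germ cell share in the fall of these copies was not tested.

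**Figure D4:**
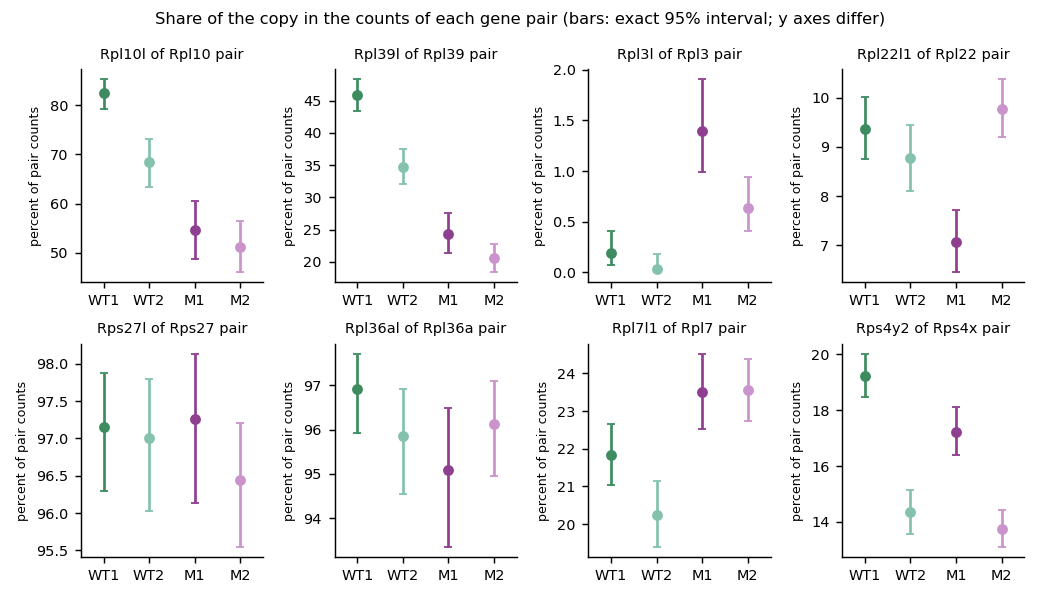
Percent of the counts of a gene pair that fell in the copy (y axis, scales differ and do not start at 0), for 8 pairs in wild-type (WT) and mutant (M) replicates 1 and 2. Points are libraries and bars exact 95% intervals for counting error. The mutant values lie below the wild-type values for Rpl39l and Rpl10l and above for Rpl3l and Rpl7l1, and the groups overlap in the other 4 panels.

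The other copies lay closer to their parent genes. Rpl36al, the autosomal copy of the X-linked Rpl36a (chromosome 12, 70283718 to 70285070, minus strand), stood at 113 and 109 CPM in wild-type testes against 68.7 and 82.5 CPM in mutant ones. It fell 1.46-fold (log2 -0.55 ± 0.11, adjusted p = 0.0296), and lost its call when wild-type replicate 1, wild-type replicate 2 or mutant replicate 1 was left out (-0.53, -0.58 and -0.43). Its share of the pair stayed between 95.1% and 96.9%, and the groups overlapped. Rps27l, a small subunit copy induced by p53, was at -0.31 ± 0.12 (adjusted p = 0.145). It held 96.4% to 97.3% of the counts of its pair with Rps27 in all libraries. The parents Rpl36a and Rps27 had mean counted levels of only 3.79 and 3.96 CPM. Every stretch of read length in their coding sequences had an exact copy elsewhere in the genome (below). The shares of Rpl36al and Rps27l thus compare libraries and not the amounts of the transcripts or proteins. Rpl22l1 stood at 58.8 and 60.5 CPM in wild-type testes against 41.3 and 61.1 CPM in mutant ones, so that its value rested on mutant replicate 1, and it held 7.07% to 9.78% of its pair with Rpl22. Rpl7l1, a protein of large subunit assembly, held 21.8% and 20.3% of its pair with Rpl7 in wild-type and 23.5% and 23.6% in mutant testes (exact permutation p = 0.333), while its own level was at -0.10 ± 0.08 (adjusted p = 0.481). Rps4y2, which RefSeq lists as Rps4l and as a transcribed pseudogene, stood at 146 and 111 CPM in wild-type testes against 117 and 92.0 CPM in mutant ones, and its share of the pair with Rps4x overlapped between groups.

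Rpl3l had the highest fold change of the members and almost no counts. It stood at 6 and 1 counts in wild-type and 38 and 24 counts in mutant testes (chromosome 17, 24864774 to 24873094, plus strand), which is 0.451 and 0.098 CPM against 3.46 and 1.53 CPM. Both mutant libraries exceeded both wild-type libraries, mutant replicate 1 the more. The ratio of summed counts, scaled for library size, was 7.81 (exact 95% interval 3.58 to 20.2, counting error only), and the call missed the threshold (log2 2.94 ± 0.72, adjusted p = 0.0547). It passed by DESeq2 (adjusted p = 0.0248), without mutant replicate 1 (2.33, adjusted p = 0.0302) and without mutant replicate 2 (3.49, adjusted p = 0.000275), and not without either wild-type library (4.45 and 2.36, adjusted p = 0.175 and 0.208). Of the 15 skeletal muscle markers 11 were called higher, against 3.15% of all tested genes. All 15 had both mutant libraries above both wild-type libraries, against 28.3% of all tested genes. In wild type Myog, a muscle transcription factor, was at 0 in both libraries, and Myl1, a myosin light chain, at 0 in replicate 2. The other markers were counted in both wild-type libraries, the highest being Des at 87.3 and 63.8 CPM. Mutant replicate 1 was the higher for the muscle sum and for Rpl3l alike, and the part of muscle RNA in the Rpl3l value was not tested. Rpl3, the parent gene, was at -0.18 ± 0.12 (adjusted p = 0.389).

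The counted level of a member varied with its copies in the genome. Ribosomal protein genes have many processed pseudogenes, intron-free copies of their messengers, and the authors' table sets reads with several alignments apart. The coding sequence of 1 transcript was available for 84 members (all but Rpl41), and each of its 100-base windows, the length of the reads, was placed without gaps on NCBIM37. In 24 members every window had an exact copy elsewhere in the genome, in 35 fewer than 50% of the windows were unique and in 25 at least 50% were. The median level was 17.0 CPM per kb of coding sequence in the first class, 213 in the second and 1489 in the third. The windows cover the coding sequence alone, whereas reads from untranslated parts may also be counted. Levels are divided by the coding length, so they are not levels per kb of whole transcript. Across the 84 genes, Spearman's rho between the unique share and the level per kb was 0.68, a description of genes that share libraries and many of their pseudogenes' features. Rps6, the small subunit protein phosphorylated on growth signals, had 17 further loci with a match of at most 2 mismatches and stood at 20.1 and 13.9 CPM in wild type, and Rpl10 had 14 such loci. Levels per kb ranged 1666-fold among these members, and reads with several alignments are in none of them.

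**Figure D5:**
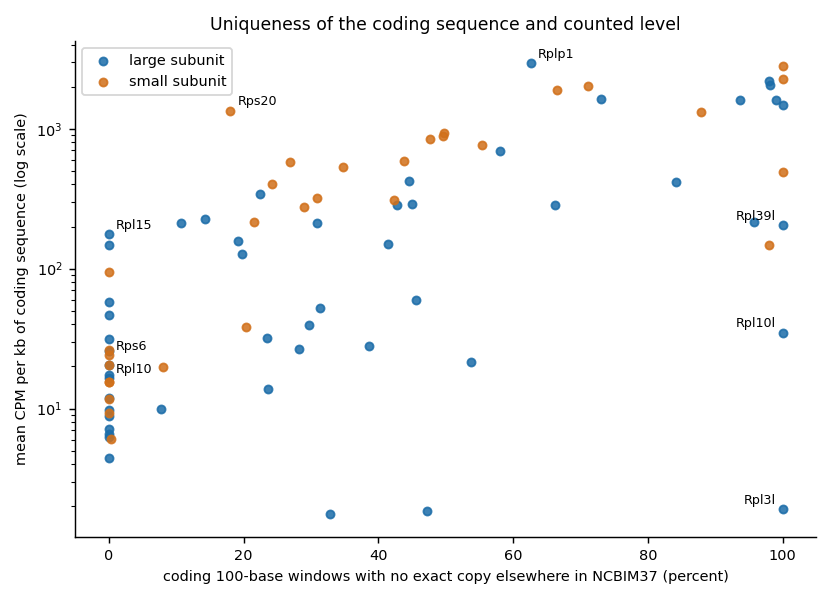
Mean level over the 4 libraries in CPM per kb of coding sequence (y axis, log scale) against the percent of 100-base coding windows without an exact copy elsewhere in NCBIM37 (x axis), for 82 of the 84 members coloured by subunit. The 24 genes at 0% lie at a median of 17.0 CPM per kb and all 25 genes at 50% or more, 23 of them drawn, at a median of 1489. Rpl3l is the gene at the lower right.

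The classes had similar median fold changes. The median log2 fold change was -0.26 in the 24 members without a unique window, -0.30 in the 35 with fewer than 50% and -0.31 in the 25 with more. The called genes came from the second class (3 of 35 genes) and the third (5 of 25), and none from the first, whose median level was 9.03 CPM. Both mutant libraries lay below both wild-type libraries in 12 of those 24, and in 49 of the 60 with some unique window. Over all tested genes this held for 29.0%. Of the members, 20 have exons that overlap another gene of the table, and none of the 8 called genes is among them.

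The other genes of the pathway were taken from fixed lists. Fau, a ribosomal protein gene under another symbol, was at -0.06 ± 0.23 (adjusted p = 0.901). Of 16 translation factors and related genes with the same kind of messenger start, 1 fell and 15 were not called. This is 6.25% called lower, against 2.52% of all tested genes. The list had a median of -0.19, with negative values in 14 genes, against 50.8% of all tested genes. The gene that fell was Eef1d, a subunit of the elongation factor complex that reloads Eef1a with GTP (265 and 262 CPM in wild-type testes against 199 and 211 CPM in mutant ones, log2 -0.36 ± 0.08, adjusted p = 0.042). Eef1a1, the elongation factor itself, stood at 7025 and 8483 against 6534 and 6832 CPM (log2 -0.21 ± 0.17, adjusted p = 0.471).

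Of 31 genes of ribosome assembly, 3 fell (9.68%, against 2.52% of all tested genes) and 28 were not called. The list had a median of -0.14, with negative values in 24 genes, against 50.8% of all tested genes. Nhp2, a protein of the particles that modify ribosomal RNA, stood at 119.9 and 142 CPM in wild-type testes against 79.8 and 83.4 CPM in mutant ones and fell 1.6-fold (log2 -0.68 ± 0.10, adjusted p = 0.0168). Mdn1, an ATPase that remodels the early large subunit, was at -0.48 ± 0.10 (adjusted p = 0.0377), and Polr1c, a subunit shared by RNA polymerases I and III, at -0.45 ± 0.10 (adjusted p = 0.0482). Among the regulators, Mycn was at -0.36 ± 0.10 and Myc at 0.33 ± 0.13, of opposite sign and neither called (adjusted p = 0.0682 and 0.156). Nucleolin (Ncl), an abundant protein of the nucleolus, stood at 895 and 866 CPM in wild-type testes against 878 and 874 CPM in mutant ones and overlapped between the groups.

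The messengers of ribosomal proteins are known to begin with a run of pyrimidines at the cap. RefSeq start sites (GRCm38.p6) were matched by symbol for 63 members, and the 50 bases around each annotated start, 25 on either side, were searched on the gene's strand for an unbroken run of at least 8 bases that are C or T. A gene with several annotated starts counted if any of them had such a run, so shares depend also on the number of starts. Such a run was found in 33 of the 63 (52.4%), against 22.3% of 27025 genes. Among the members called lower 2 of 7 had it, and among those not called 31 of 56. A run anywhere in the 50 bases was counted, also one that lies wholly upstream of the start and so outside the annotated messenger. Of the called genes, Rpl14 (chr9:120571492-120571541, plus strand) and Rpl39l (chr16:10170203-10170252, plus strand) had a run, shown in capitals. That of Rpl14 spans the annotated start, whereas that of Rpl39l lies wholly upstream of it. Rps15 (chr10:80292406-80292455, plus strand) is shown as one without. The start is base 26 of each sequence, the annotated starts may not be the ones used in testis, and a match is a description of these letters alone.
Rpl14: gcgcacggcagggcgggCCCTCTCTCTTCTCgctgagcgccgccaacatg
Rpl39l: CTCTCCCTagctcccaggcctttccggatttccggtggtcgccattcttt
Rps15: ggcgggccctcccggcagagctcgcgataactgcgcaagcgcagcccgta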

How the data were processed

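The labels' protocols describe oligo-dT enriched RNA sequenced as 100-base single-end reads. The submitters' processing notes name CASAVA 1.8.1, TopHat 1.4.0, HTSeq, DESeq2 and mm9 without role or order. The authors deposited 1 table of counts, given the unit estimated counts in place of raw counts since the lines below the genes are percentages. Its gene rows are whole numbers, so rounding changed nothing, and they sum to the table's own total. Reads in no gene (13.8% to 17.3% of counted reads), ambiguous reads and reads with several alignments were left out. For the counter's mode, its annotation and whether strand was used, the answer is not given in the sources used here.

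Counts were tested with edgeR 4.0.16 in R 4.3.3 (quasi-likelihood, TMM scaling, filterByExpr with a minimum count of 10 and total of 15, robust and legacy options off, genotype alone, two-sided), with Benjamini-Hochberg adjustment over all 14788 tested genes. The standard error (SE) is the size of the log2 fold change over the root of F. The code was tested on simulated counts. DESeq2 1.42.0, limma 3.58.1 (voom), other scalings and filters, a replicate block and each library left out were alternatives. Members, lists and tests were chosen with earlier results of these data known. Named members are the 8 copies with their parent genes, all called members, the 5 highest and 5 lowest fold changes at a mean log2 CPM of at least 1, the 5 highest levels and 10 genes always given. Rps4y2, an older symbol of the planned Rps4l, the search for copies in the genome, the promoter search and the split by abundance were added after the data were seen. Gene positions are those of GENCODE M1 on NCBIM37. Values of some genes are not reported here, and the counts over all members include them. Intervals cover counting error only.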

Additional observations from a re-analysis of the deposited data

How the results depend on the processing

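The 8 called members stayed negative under all 15 alternatives. The medians of all members, large subunit and small subunit kept their sign under all 15 alternatives, and without mutant replicate 2 they reached -0.39 (members) and -0.43 (small subunit). They ranged from -0.39 to -0.23, from -0.35 to -0.20 and from -0.43 to -0.26 over the libraries left out. The members' share of gene counts, mutant minus wild type, was -0.56 percentage points and ranged from -0.69 to -0.425 over the libraries left out. Counts of calls held less well. Without a filter on low counts 5 members were lower, with 218 genes lower and 282 higher in all, while DESeq2 gave 16 members lower and 1 higher. With robust or legacy options, and with the replicate block, 1 member, Rpl3l, was higher. limma voom called 309 genes higher. Over the libraries left out, the members called lower numbered 1 to 15, those higher 0 to 1, and all genes called lower 40 to 477 and higher 34 to 818. Replicate numbers are not stated to pair the libraries. The difference between replicates 1 and 2 correlated at -0.03 between the groups over 14788 genes, which cannot show whether the libraries were paired. With the replicate block 6 members were lower, with the calls of Rps15 and Rps19 lost, and 512 genes were higher and 341 lower. Leaving out a library leaves 1 sample in a group, assumed to vary like the other group.

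Values near 0 changed sign under some alternatives, and none of the values with a changed sign was called. Rpl17 was at 0.0042 with median ratio scaling, 0.014 with upper quartile scaling, 0.0011 without a filter, 0.00011 with a CPM filter, 0.017 by limma voom, 0.23 without wild-type replicate 2 and 0.075 without mutant replicate 1. Rpl15 was at -0.00064 by library size alone, -0.21 without wild-type replicate 1 and -0.18 without mutant replicate 1, and Rpl5 at 0.039 by limma voom, 0.46 without wild-type replicate 2 and 0.00093 without mutant replicate 1. Without wild-type replicate 2, Rpl3 was at 0.011, Rps14 at 0.014 and Rps6 at -0.072, and without mutant replicate 1, Rpl22l1 at 0.035 and Rps27 at 0.14. The share of Rpl22l1 in its pair differed by 0.707 percentage points without mutant replicate 1, that of Rps27l by 0.178 without mutant replicate 2, and that of Rps4y2 by 1.15 without wild-type replicate 1 and 0.443 without mutant replicate 2. Over the libraries left out, Rpl15 ranged from -0.21 to 0.25, Rpl17 from -0.25 to 0.23, Rpl22l1 from -0.53 to 0.035, Rpl5 from -0.49 to 0.46 and Rps27 from -0.57 to 0.14, and the shares of Rpl22l1, Rps27l and Rps4y2 from -1.997 to 0.707, -0.638 to 0.178 and -3.74 to 1.15. The cause was not tested.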

Other observations

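The table's line for alignments that were not unique holds 6340790 and 5421990 in wild-type and 5452607 and 7506750 in mutant replicates 1 and 2, beside 13228903, 10230512, 11089136 and 15636832 gene counts in the same order. Among the members, 29 of 84 had at least 10 further loci in NCBIM37 that matched a 100-base coding window at up to 2 mismatches, and Rpl7a had the most, with 100.0. Rpl39l and Rpl3l had no such locus. With up to 2 mismatches allowed in place of an exact match, Spearman's rho between the unique share and the level per kb across the 84 genes was 0.58.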
